A study of Mus musculus with 4 samples.

Results

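The 44 genes described here carry Nduf names in the deposited table of 15255 genes, and were taken by that name, leaving out the names that contain -ps. They encode the nuclear subunits of respiratory complex I (NADH:ubiquinone oxidoreductase) and 8 Ndufaf assembly factors. The RNA came from fresh LSK cells of the mouse bone marrow, a fraction without lineage markers and with Sca-1 and c-Kit that holds haematopoietic stem and progenitor cells. There were 2 libraries from Afg3l2 wild-type mice and 2 from Afg3l2 knockout mice, numbered 1 and 2 in each group, with poly(A) RNA read from 1 end on an Illumina instrument. Strain, age, the way the knockout was made and whether a library is 1 animal are not given in the sources used here. The p-values measure only the spread between these libraries, which may be technical.

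Complex I is an L-shaped enzyme of the inner mitochondrial membrane that passes electrons from NADH to ubiquinone and pumps protons. Its matrix arm consists of the N module, where NADH is oxidised, and the Q module, where ubiquinone is reduced. Its membrane arm has a proximal and a distal part and is built around subunits encoded by mitochondrial DNA. Core subunits carry the cofactors and are conserved from bacteria, accessory subunits surround them, and assembly factors help to join the modules without staying in the finished enzyme. Afg3l2 encodes part of the m-AAA protease, which sits in the same membrane. The roles given below were mostly established for the human or bovine proteins.

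Of the 44 genes, 10 belong to the N module, 5 to the Q module, 9 to the proximal arm, 11 to the distal arm and 8 to the assembly factors. The remaining gene is Ndufa4, which has the name of a complex I subunit but whose protein is now assigned to complex IV. The core subunits here are 6 genes, and Ndufs3, the other nuclear core subunit gene, is not analysed here. Levels are given in CPM, a read count divided by its library's effective size, and fold changes on the log2(CPM + 1) scale with their standard error (SE). All 44 had a mean of at least 11.9 CPM, so a filter on low values removed none of them.

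Libraries held 16522338 to 17271936 reads assigned to genes. Afg3l2 itself stood at 79.6 and 86.0 CPM in wild-type and 36.7 and 30.1 CPM in knockout libraries 1 and 2, a log2 fold change of -1.29 ± 0.16 (SE; limma adjusted p = 0.0115), and the groups did not overlap. The 9 LSK markers (Kit, Ly6a, Cd34 and others) were all present in every library. Their summed level was 1637 and 945 CPM in wild-type libraries 1 and 2, and 953 and 629 CPM in knockout libraries 1 and 2. Much of this sum was Cd34 (580 and 305 against 268 and 119 CPM) and Flt3 (398 and 207 against 155 and 101 CPM). Ly6a, which encodes Sca-1, stood at 57.1 and 61.6 against 95.5 and 76.9 CPM. Ly6a and Slamf1 had log2 fold changes above 0 and the other LSK markers below 0. The 7 neutrophil and monocyte markers measured summed to 347 and 2211 CPM in wild-type libraries, and to 913 and 677 CPM in knockout libraries. The 5 B cell markers stood at 158 and 429 CPM against 61.8 and 245 CPM, the 7 T and NK cell markers at 146 and 246 against 161 and 123 CPM, and the 7 erythroid markers at 191 and 208 against 210.3 and 268 CPM. Most of the T and NK sum was Nkg7 (132 and 205 against 134 and 68.9 CPM). Nkg7, Cd4 and Klrb1c had log2 fold changes below 0, and Cd3d, Cd3e, Cd8a and Trac above 0. None of the markers in these lists was at 0 in any library. By limma Csf1r, a monocyte receptor, was lower in the knockout (adjusted p = 0.0404, in a fit that called 2.42% of all genes). The other markers of its list did not pass and went both ways. Log2 fold changes were -1.52 for Itgam, -1.26 for Ltf and -0.66 for Ly6c2, but 0.83 for S100a9, 0.72 for S100a8 and 0.49 for Camp. The part of such differences in the values below was not tested, and in bulk RNA fewer cells of a type and less RNA per cell cannot be told apart.

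Promoters are shown first for 3 genes: Ndufaf4, the member with the highest log2 fold change, Ndufa4, the member with the lowest, and Ndufa11, which shares a motif with Ndufaf4. RefSeq promoters on GRCm38.p6 matched 39 of the 44 members by symbol, in 41 windows, and the 250 bases before each start site were searched on both strands for 5 motifs. The bases below run 5′ to 3′ on the gene's strand, with bases inside the GENCODE gene left out. Capitals mark CGCATGCG, the core of the site of NRF1, a transcription factor of many respiratory chain genes.
Ndufaf4: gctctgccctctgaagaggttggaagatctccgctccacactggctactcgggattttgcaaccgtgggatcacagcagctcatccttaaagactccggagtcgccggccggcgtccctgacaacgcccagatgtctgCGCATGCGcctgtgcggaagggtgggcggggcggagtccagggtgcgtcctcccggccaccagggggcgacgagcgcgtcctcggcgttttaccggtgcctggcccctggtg
Ndufa11: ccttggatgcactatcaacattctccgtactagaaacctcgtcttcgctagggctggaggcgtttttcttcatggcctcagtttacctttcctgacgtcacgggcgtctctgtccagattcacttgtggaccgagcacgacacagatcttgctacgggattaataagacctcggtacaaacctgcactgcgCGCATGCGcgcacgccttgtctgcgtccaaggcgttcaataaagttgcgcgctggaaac
Ndufa4: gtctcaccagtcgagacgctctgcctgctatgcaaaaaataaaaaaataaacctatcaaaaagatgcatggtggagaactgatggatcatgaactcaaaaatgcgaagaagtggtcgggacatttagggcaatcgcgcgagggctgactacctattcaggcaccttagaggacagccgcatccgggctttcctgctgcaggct
The Ndufaf4 stretch is chr4:24897833-24898082 on the plus strand, that of Ndufa11 chr17:56717512-56717761 on the plus strand, and that of Ndufa4 chr6:11907498-11907700 on the minus strand. The motif lay 112 to 105 bases before the start site of Ndufaf4 and 59 to 52 bases before that of Ndufa11. It was in 3 of 41 member windows (7.32%), the third being that of Ndufa8, and in 509 of all 32851 promoter windows (1.55%). Its form with any 2 middle bases, CGCNNGCG, was in 16 member windows (39.0%) of 15 genes and in 12.1% of all windows, and these 16 include the 3 windows with the full core. Of the 15 genes, Ndufaf3 and Ndufaf4 had log2 fold changes above 0, against 12 of all 44 members. A link between the motif and the fold change was not tested. The ETS core CCGGAAG was in 4 member windows (9.76%, against 6.91% of all), AAGGTCA, an element bound by ERR nuclear receptors, in 3 (7.32%, against 4.08%), and the ATF4 site TGATGNAA in 0 of 41 (against 3.45%). Ndufa4 held none of the 5. A match is a stretch of letters and not a shown binding site.

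In the knockout most subunit RNAs had slightly lower values and most assembly factor RNAs did not. No single member passed the limma test over all genes without a block on the replicate number. By limma 0 of 44 members passed at an adjusted p under 0.05, against 2.42% of all genes. The edgeR quasi-likelihood test also called 0 (1.88% of all genes), and DESeq2 called 1, Ndufa4 (7.96%). At an unadjusted limma p under 0.05, 8 members were lower (9.79% of all genes) and 1 was higher (11.0%). With the replicate number as a block in the limma fit these counts were 11 (14.0% of all genes) and 1 (14.7%). In that fit 1 member, Ndufa4, passed at an adjusted p under 0.05 (11.7% of all genes). Log2 fold changes of the 36 genes with subunit names ran from -0.67 to 0.25 with a median of -0.19, and 30 of the 36 were below 0. Those of the 8 assembly factors ran from -0.37 to 0.39 with a median of 0.08. The difference between subunits and assembly factors was not tested. Their transcripts also differed in length, with medians of 772.5 bases for subunit names and 1308.5 bases for assembly factors. The median over all 15255 genes was -0.02, and 51.6% of them were below 0.

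Knockout library 2 carried most of that difference. Against the wild-type mean, the median subunit difference on the log2(CPM + 1) scale was -0.04 in knockout library 1 and -0.30 in knockout library 2. Of the 8 assembly factors, 2 were below the wild-type mean in knockout library 1 and 4 in knockout library 2. Knockout library 2 was below knockout library 1 in 37 of the 44 members, against 50.6% of all genes. Without knockout library 2 the fitted median of the subunits was -0.04, and without knockout library 1 it was -0.30. Both knockout libraries were below both wild-type libraries for 20 of 44 members (26.9% of all genes), and above both for 6 (27.2% of all genes).

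**Figure D1:**
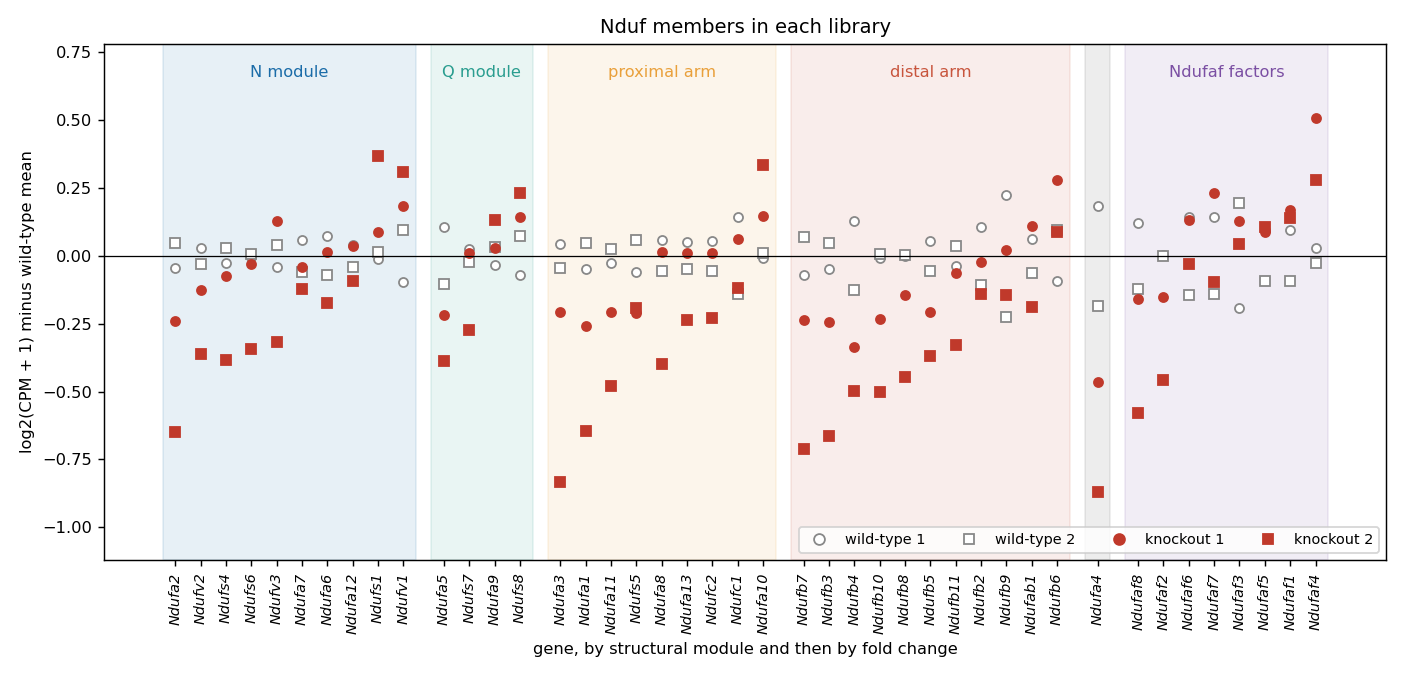
Difference of each library from the wild-type mean on the log2(CPM + 1) scale (vertical axis) for 43 of the 44 members (horizontal axis), grouped by module, with Ndufa4 in the unlabelled grey band. Open symbols are wild-type and filled red symbols knockout libraries, circles library 1 and squares library 2. Over all 44 members, knockout library 2 was below knockout library 1 for 37. Both knockout points lie above both wild-type points for 6 members: Ndufs1, Ndufv1, Ndufs8, Ndufa10, Ndufaf1 and Ndufaf4.

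Ndufa4 was the member with the lowest log2 fold change. It stood at 237 and 184 CPM in wild-type and 151 and 114 CPM in knockout libraries 1 and 2. Library 2 was lower than library 1 in each group, and the groups did not overlap. The wild-type mean was 210.3 ± 37.8 CPM and the knockout mean 132 ± 26.2 CPM (SD, n = 2 libraries each). Their ratio was 0.629, with a log2 fold change of -0.67 ± 0.19 (SE; limma adjusted p = 0.116). It passed in a limma fit with the replicate number as a block (adjusted p = 0.00931, 11.7% of all genes called) and in DESeq2 (adjusted p = 0.0296), but not in edgeR (adjusted p = 0.133). In the authors' deposited table it is the 1 member of 44 with an adjusted p under 0.05 (0.00364, where 11.5% of all genes pass). Without wild-type library 2 its limma adjusted p was 0.0296, in a fit that called 7.0% of all genes. Over all the limma, edgeR and DESeq2 fits run, its adjusted p ranged from 0.00736 to 0.677. Ndufa4 (ENSMUSG00000029632) lies on chromosome 6 of GRCm38 from 11900292 to 11907497.

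In the N module 8 of 10 genes were below 0, and both genes above 0 were core subunits. Ndufv1, which binds NADH and FMN, stood at 135 and 154 CPM in wild-type and 164 and 179 CPM in knockout libraries 1 and 2. Both knockout values were above both wild-type values, at a log2 fold change of 0.25 ± 0.14 (limma adjusted p = 0.358). Ndufs1, a core subunit with iron-sulphur clusters, stood at 109 and 111 CPM against 117 and 143 CPM, again with no overlap (0.23 ± 0.15, adjusted p = 0.422). Ndufv2, also an iron-sulphur core subunit, stood at 157 and 150.2 CPM against 140.5 and 119 CPM (-0.24 ± 0.14, adjusted p = 0.372). Here the knockout values were the lower ones, without overlap. Ndufa2, an accessory subunit, stood at 119.9 and 128 CPM against 105 and 78.6 CPM, with a log2 fold change of -0.44 ± 0.17 (unadjusted p = 0.0321, limma adjusted p = 0.198). Ndufv3, the member of this module with the lowest mean level, stood at 56.4 and 59.7 CPM against 63.6 and 46.4 CPM, with knockout libraries on both sides of the wild-type ones. Ndufs4, Ndufs6, Ndufa7, Ndufa6 and Ndufa12 had log2 fold changes from -0.23 to -0.03. The median of the 10 genes was -0.09.

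In the Q module, whose core subunits lead electrons to ubiquinone, 3 of 5 genes were below 0 and the median was -0.13. Ndufs7, which holds the last iron-sulphur cluster before ubiquinone, stood at 162 and 157 CPM in wild-type libraries 1 and 2 and at 160.4 and 132 CPM in knockout libraries 1 and 2, so that only knockout library 2 lay apart. Ndufs8, an iron-sulphur subunit, stood at 73.2 and 80.9 CPM against 85.1 and 90.5 CPM, with both knockout values higher (0.19 ± 0.14, adjusted p = 0.490). The accessory subunits Ndufa5 and Ndufa9 had log2 fold changes of -0.30 and 0.08. Ndufa5 stood at 67.2 and 57.9 CPM against 53.5 and 47.4 CPM, the lowest mean level in the module.

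The proximal membrane arm held 8 of 9 genes below 0, with a median of -0.19. Ndufa3, a small membrane subunit, stood at 95.3 and 89.5 CPM in wild-type and 79.9 and 51.4 CPM in knockout libraries 1 and 2. Ndufa1, another small subunit with a single membrane span, stood at 66.5 and 71.2 CPM against 57.4 and 43.6 CPM. In both genes the groups did not overlap and knockout library 2 was well below library 1. Their log2 fold changes were -0.52 ± 0.21 (unadjusted p = 0.0414, limma adjusted p = 0.223) and -0.45 ± 0.17 (unadjusted p = 0.0319, adjusted p = 0.197). Ndufa10, a subunit that resembles nucleoside kinases, was the exception at 121 and 123 CPM against 135 and 154 CPM (0.24 ± 0.14, adjusted p = 0.360), with the knockout higher. It had the highest mean CPM of this arm. Ndufc1, with the lowest, stood at 41.4 and 33.8 CPM against 39.1 and 34.4 CPM, and its groups overlapped. Ndufa11, Ndufs5, Ndufa8, Ndufa13 (also known as Grim19) and Ndufc2 had log2 fold changes from -0.34 to -0.11.

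The distal membrane arm had the lowest median of the modules, -0.29, and 10 of its 11 genes were below 0. Ndufb7, a subunit on the intermembrane space side, stood at 131 and 144 CPM in wild-type and 116 and 83.5 CPM in knockout libraries 1 and 2 (log2 fold change -0.47 ± 0.18, limma adjusted p = 0.199). Ndufb3, an accessory membrane subunit, stood at 69.2 and 74.0 CPM against 60.2 and 44.8 CPM (-0.45 ± 0.18, adjusted p = 0.202). Ndufb10, the most abundant of the arm by CPM, stood at 149.96 and 152 CPM against 128 and 106 CPM (-0.37 ± 0.15, adjusted p = 0.214). Ndufb4 stood at 45.7 and 38.1 CPM against 32.8 and 29.3 CPM (-0.42 ± 0.17, adjusted p = 0.224). In these 4 genes every knockout value lay below every wild-type value, and each had an unadjusted p under 0.05 (9.79% of all genes were lower at that level). Both knockout libraries were below both wild-type libraries for 7 of the 11 genes of the arm (26.9% of all genes). Ndufb6 had the sole positive log2 fold change of the arm, 0.18 ± 0.16 (adjusted p = 0.560), at 39.1 and 44.7 CPM against 50.9 and 44.5 CPM. Its groups overlapped. Ndufb2 had the lowest mean level, 13.3 and 11.3 CPM against 12.1 and 11.04 CPM. Ndufab1, the mitochondrial acyl carrier protein, which also serves fatty acid synthesis, had a log2 fold change of -0.04, and Ndufb5, Ndufb8, Ndufb9 and Ndufb11 ran from -0.30 to -0.06.

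**Figure D2:**
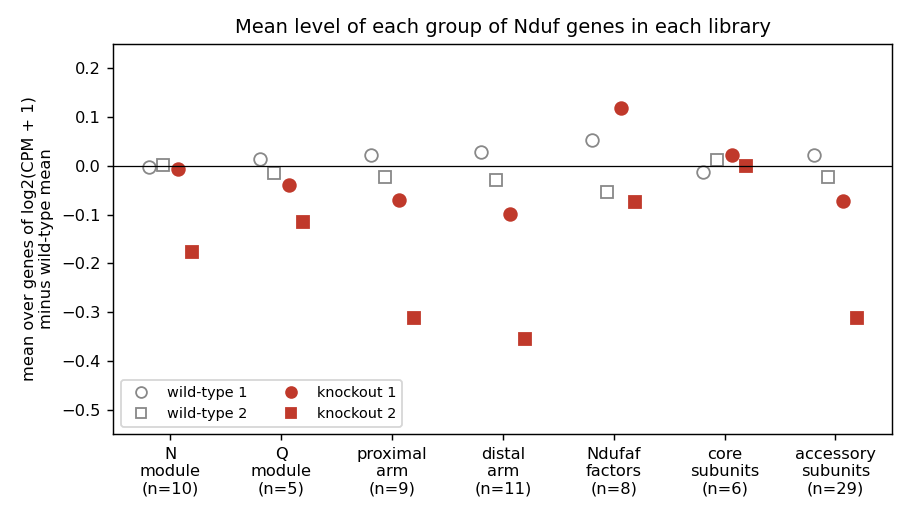
Mean over the genes of each group (horizontal axis, with the number of genes) of the difference from the wild-type mean on the log2(CPM + 1) scale (vertical axis), with 1 point for each library. For the 6 core subunits the 4 libraries lie between -0.01 and 0.02, while knockout library 2 stands at -0.31 for the 29 accessory subunits.

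Core and accessory subunits differed in where the knockout libraries stood. The 6 core subunits averaged 0.02 in knockout library 1 and 0.00 in knockout library 2 against the wild-type mean, with 3 genes above and 3 below 0. The 29 accessory subunits averaged -0.07 and -0.31, with 26 below 0. After length correction the median log2 fold change of the core subunits went from 0.03 to 0.12 and that of the accessory subunits from -0.19 to -0.04, with 17 of the 29 accessory genes below 0. Summed over the 29 genes, accessory subunit RNA was 2343 and 2301 CPM in wild-type and 2201 and 1871 CPM in knockout libraries, and core subunit RNA was 903 and 902 CPM against 898 and 876 CPM. The difference between the 2 kinds of subunit was not tested. Their transcripts also differed in length, with medians of 1420.2 bases for core and 704 bases for accessory genes.

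Assembly factors held the 1 member that was higher at an unadjusted p under 0.05. Ndufaf4, which acts with Ndufaf3 on the Q module, stood at 47.0 and 45.2 CPM in wild-type and 66.0 and 56.1 CPM in knockout libraries 1 and 2. Both knockout values were higher without overlap, from 46.1 ± 1.24 to 61.1 ± 6.98 CPM on average, a ratio of 1.32. Its log2 fold change was 0.39 ± 0.15 (unadjusted p = 0.0344, limma adjusted p = 0.203, and 0.0908 with a replicate block). Ndufaf4 (ENSMUSG00000028261) lies on chromosome 4 from 24898083 to 24905001 on the plus strand. Ndufaf3 stood at 16.0 and 21.2 CPM against 20.3 and 19.1 CPM and overlapped.

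The other assembly factors lay close to the wild-type level or, for 2 of them, below it. Ndufaf1, a part of the assembly complex that builds the proximal arm, stood at 22.9 and 19.99 CPM against 24.2 and 23.7 CPM, with both knockout values slightly higher (0.15 ± 0.19, adjusted p = 0.681). Ndufaf5, which hydroxylates Ndufs7, stood at 12.9 and 11.2 CPM against 12.8 and 13.03 CPM. Ndufaf6, an early assembly factor, stood at 20.3 and 16.4 CPM against 20.1 and 17.9 CPM. All 3 had log2 fold changes between 0.05 and 0.15. Ndufaf7, a mitochondrial methyltransferase, stood at 40.9 and 33.4 CPM against 43.6 and 34.5 CPM, where the replicate numbers differed more than the groups. Ndufaf2, a relative of Ndufa12, stood at 24.8 and 24.7 CPM against 22.2 and 17.7 CPM (-0.30 ± 0.20, adjusted p = 0.419). Ndufaf8, a partner of Ndufaf5, stood at 31.4 and 26.3 CPM against 25.7 and 18.9 CPM (-0.37 ± 0.21, adjusted p = 0.364). In both the knockout values were lower without overlap. Both have short transcripts, of 617 bases for Ndufaf2 and 604 bases for Ndufaf8, against 3632 bases for Ndufaf4. Of the exon bases of Ndufaf2, 65.6% are shared with the lincRNA B230220B15Rik on the other strand, which reads of unstated strand do not tell apart.

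Levels of different genes were compared per kilobase of median transcript length in wild-type cells. The 35 complex I subunits ran from 5.10 CPM per kilobase for Ndufb2 to 221 for Ndufb7, with a median of 103. The 8 assembly factors ran from 10.3 for Ndufaf5 to 47.8 for Ndufaf8, with a median of 15.7. Ndufa4 stood at 457. The lowest subunit values were those of Ndufb2 and Ndufab1 (30.2), whose annotated transcripts are long (medians of 2413 and 2448 bases). Ndufb2 also had the lowest mean level of all 44 members, 11.9 CPM.

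Transcript length moved with the fold change, among the members and across the whole table. Over the 44 members, the log2 fold change and log10 transcript length had a Pearson r of 0.62 and a Spearman rho of 0.56, across genes that share the same 4 libraries. The 17 members of up to 700 bases had a median log2 fold change of -0.30, the 18 members of 700 to 1500 bases -0.09, and the 9 longer members 0.07. Other protein-coding genes at a mean level of 1 CPM or more showed the same order. Their median was -0.28 in 92 genes of up to 500 bases, -0.26 in 248 genes of 500 to 700 bases, and -0.12 in 632 genes of 700 to 1000 bases. It was 0.06 in 3427 genes of 3000 to 5000 bases and 0.12 in 1629 genes above 5000 bases.

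**Figure D3:**
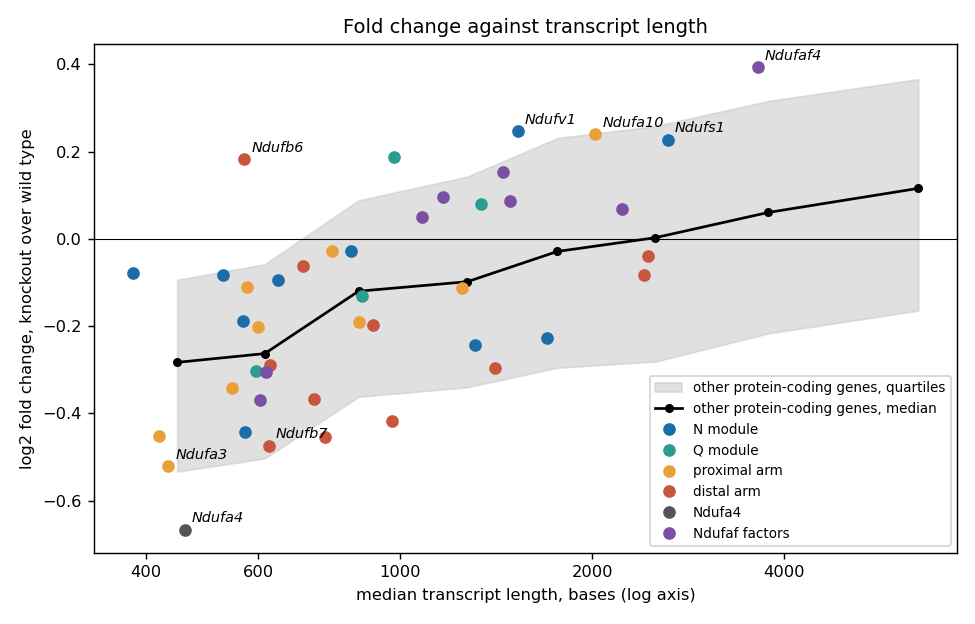
Log2 fold change (vertical axis) against median transcript length in bases (horizontal log axis) for 43 of the 44 members, coloured by module. The black line is the median, and the grey band the quartiles, of other protein-coding genes in 8 length bins. Ndufa4, Ndufb3, Ndufb4 and Ndufb10 were below the lower quartile of their length bin, and Ndufa6, Ndufaf1, Ndufaf4, Ndufb6, Ndufs8 and Ndufv1 above the upper quartile of theirs.

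In each bin of length, members and other genes could be set side by side. The 4 members of up to 500 bases (Ndufa1, Ndufa3, Ndufa4 and Ndufa6) had a median of -0.49 and the 13 members of 500 to 700 bases a median of -0.29. Of all 44 members, 23 lay below the median of other genes in their bin. The length trend was larger in knockout library 2 than in library 1, at -0.40 and -0.18 against the wild-type mean for the shortest genes. It was also seen between replicates of 1 group, where the shortest genes were at -0.18 in wild-type library 2 against library 1 and at -0.25 in knockout library 2 against library 1. These libraries were selected for fragment size, per the labels' protocols, and RNA integrity values are not given in the sources used here. The part of library preparation in the trend was not tested.

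After each library was corrected for transcript length by a loess over all genes, the median of the 36 subunit names was -0.04 in place of -0.19, and 20 of 36 were below 0 (48.9% of all genes). Module medians became 0.11 for the N module, 0.02 for the Q module, -0.02 for the proximal arm and -0.09 for the distal arm. That of the assembly factors became 0.16. At an unadjusted limma p under 0.05, 0 of the 44 members were then lower (8.84% of all genes) and 1 was higher (11.7%), Ndufb6, with a corrected log2 fold change of 0.40 (adjusted p = 0.219). By limma 0 members passed over all genes after correction (3.02% of all genes). Of the exon bases of Ndufb6, 39.0% are shared with Smim27 on the other strand. The corrected value of Ndufa4 was -0.41 on the log2 scale (adjusted p = 0.281). With the block as well, its adjusted p was 0.0970 (4.6% of all genes passed), 1 member was lower at an unadjusted p under 0.05, Ndufa4 (12.0% of all genes), and 4 were higher (14.0%): Ndufv1, Ndufs8, Ndufb6 and Ndufaf4. Such a correction also removes any change that genes of 1 length share for another reason. It left part of the trend among the members. Over the 44, the corrected log2 fold change and log10 transcript length had a Pearson r of 0.32 and a Spearman rho of 0.30. Correction for GC content left the subunit median at -0.16.

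**Figure D4:**
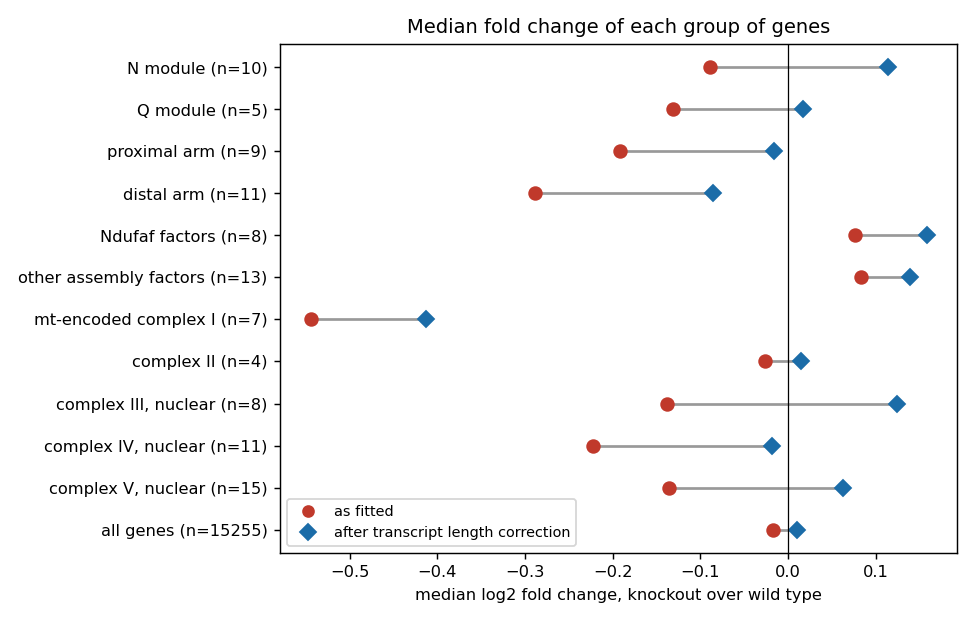
Median log2 fold change (horizontal axis) of each group of genes (vertical axis, with the number of genes measured), as fitted (red circles) and after transcript length correction (blue diamonds). Nuclear complex I modules move from between -0.29 and -0.09 to between -0.09 and 0.11, and the median of mitochondrially encoded complex I genes from -0.54 to -0.41.

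Nuclear subunits of complexes II to V served as a comparison of like kind. Of 38 measured genes (the list has 40), 0 passed by limma in either direction (2.42% of all genes). At an unadjusted p under 0.05, 6 were lower (9.79% of all genes) and 2 higher (11.0%), and the median was -0.14, or 0.02 after length correction. Complex II genes, with a median length of 1612 bases, had a median of -0.03, and complex IV genes, with 645 bases, had -0.22. Uqcrh, a small subunit of complex III, had the lowest log2 fold change of these 38 genes, -0.68 ± 0.20 (limma adjusted p = 0.130, and 0.0111 with a replicate block), against -0.67 for Ndufa4. Cox6c, of complex IV, also passed with the block only (log2 fold change -0.46, adjusted p = 0.155, and 0.0413 with the block). Atp5b, the catalytic beta subunit of ATP synthase and a longer transcript, was at 0.45 (adjusted p = 0.185, and 0.0223 with the block). With the block, 2 of the 38 genes passed as lower and 1 as higher, in a limma fit where 11.7% of all genes passed.

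Of 13 measured assembly factors without an Nduf name (the list has 14), 0 passed by limma (2.42% of all genes). At an unadjusted p under 0.05, 1 was lower (9.79% of all genes) and 2 were higher (11.0%), and the median was 0.08. Ecsit, which acts with Ndufaf1 in the proximal arm assembly complex, stood at 23.8 and 29.9 CPM in wild-type and 39.97 and 40.4 CPM in knockout libraries 1 and 2. Both knockout values were higher, with a log2 fold change of 0.57 ± 0.18 (limma adjusted p = 0.134, and 0.0492 with a replicate block). With the block, 1 of the 13 factors passed as higher and 0 as lower, where 11.7% of all genes passed. Aifm1, which supports import of respiratory chain subunits, and Dmac2, a distal arm assembly factor, stood at 0.43 and -0.48 on the log2 scale, without passing (adjusted p = 0.207 and 0.187). Among 7 measured genes of other routes into ubiquinone, 0 passed by limma (2.42% of all genes), and at an unadjusted p under 0.05 1 was higher (11.0%) and 1 lower (9.79%). Dhodh, of pyrimidine synthesis, was at 0.37 and Etfb, an electron carrier of fatty acid oxidation, at -0.56.

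Mitochondrially encoded complex I genes had a median of -0.54 over 7 genes, 5 of them below 0, and -0.41 after length correction. Their difference from the nuclear modules was not tested. By limma 1 of the 7 passed (2.42% of all genes). With the replicate number as a block 4 passed as lower and 0 as higher (11.7% of all genes passed). The 1 that passed without the block, mt-Nd6, stood at 853 and 594 CPM in wild-type and 376 and 296 CPM in knockout libraries 1 and 2. Its limma adjusted p was 0.0442, or 0.00102 with the block, and its edgeR adjusted p was 0.0596. The gene mt-Nd6 lies on the strand opposite to mt-Nd5 (log2 fold change -0.77). Since reads of unstated strand do not tell the 2 strands apart, mt-Nd6 may have been given reads of RNA from the other strand. It did not pass after transcript length correction (limma adjusted p = 0.0739), without knockout library 1 (0.1197) or without knockout library 2 (0.4391).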

How the data were processed

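Genes were chosen by name from 1 deposited table, with earlier results of these data known, and the gene lists and motifs likewise. The NRF1 motif was shortened to 8 bases after counts for a longer form were seen. Per the submitters' processing notes, STAR 2.7.10a, featureCounts 2.0.1 and the GRCm38.p6 build were used. The annotation, trimming and strand setting are not given in the sources used here. The deposited signal per gene and library is headed CPM, and 100% of its values were whole reads (within 0.01) after division by the step of their column. It is thus scaled to an effective library size. The deposited log2 fold change and average log2 CPM, the likelihood ratio (a score) and the p-values are the authors' own. A refit here by edgeR 4.0.16 (likelihood ratio test, replicate number as a block) gave log2 fold changes within 3.63e-08 of those deposited.

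Here, limma 3.58.1 in R 4.3.3 was fitted to log2(CPM + 1) of all 15255 genes with a trend, robust moderation and no block, two-sided, with Benjamini-Hochberg adjustment over all genes. The fit understates changes of genes with few reads. Scripts were tested on simulated data. Positions and transcript lengths (median of a gene's basic protein-coding transcripts) are from GENCODE M21 on GRCm38, which held 15226 of the identifiers. The length correction subtracted from each library a loess of its deviation from the gene mean on log10 length. Named with values in every library are the 6 members of smallest p in each direction, core subunits, Ndufaf factors and the highest and lowest of each module. Of the genes this rule and the marker lists would name, 1 member and 1 marker are not reported here by name, and stay in the counts and medians. Ndufa3 and Ndufb4 were added after their values were seen, since they too had an unadjusted p under 0.05. From other lists, called genes and up to 3 of smallest p are named. Uqcrh, Cox6c and Atp5b were those of the smallest p in complexes II to V. Alternatives were a pseudocount of 0.1 CPM, a stricter filter (both libraries of either group at 1 CPM, and 20 reads on average), median-of-ratios scaling, a replicate block, each library left out, edgeR, DESeq2 1.42.0 and length correction. Another length, GC correction, edgeR with a block and leaving out genes that share exon bases were chosen after seeing the data.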

Additional observations from a re-analysis of the deposited data

How the results depend on the processing

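A pseudocount of 0.1 CPM, the stricter filter, median-of-ratios scaling and edgeR left all 44 members on the same side of 0 and of the adjusted threshold. The cause of the other shifts was not tested, except where noted. The number of genes called, 369, was 1779 with a replicate block, 1789 by edgeR with a block, 1214 by DESeq2, 701 with a block and length correction, and 0 to 1068 with 1 library left out. Such fits leave 1 library alone in its group, assumed to vary like the other group. Each left-out library moved it by over 1.5 times: 656 and 1068 without wild-type library 1 or 2, 64 and 0 without knockout library 1 or 2 (limma, with 1209 genes at an unadjusted p under 0.05 in the last). Called members numbered 0, and 1 (Ndufa4) with the block, by edgeR with the block and by DESeq2, and 0 to 1 with a library left out. Members lower at an unadjusted p under 0.05 numbered 8, but 0 after length correction, 1 with the longest transcript as length, 1 with block and length correction, 5 after GC correction, 13 by edgeR with a block, and 0 to 9 with a library left out. Members higher numbered 1 (11.0% of all genes), but 4 with block and length correction (14.0%) and 3 with the longest transcript, where the share is likewise not given. The subunit median was -0.037 after length correction by the median transcript, with or without the block, and by the longest, and ran from -0.30 to -0.036 with a library left out. It was -0.19 without Ndufa4 and without the 7 members that share 10% or more of their exon bases with another gene. That of the assembly factors ran from -0.036 to 0.19.

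After length correction, with or without a block, 10 members that were below 0 were above it: Ndufs6 (0.033), Ndufv3 (0.10), Ndufa7 (0.15), Ndufa6 (0.21), Ndufa12 (0.13), Ndufs7 (0.017), Ndufs5 (0.0096), Ndufc2 (0.11), Ndufc1 (0.14) and Ndufb9 (0.12). With the longest transcript these were Ndufa7 (0.16), Ndufa6 (0.14), Ndufa12 (0.10), Ndufs7 (0.013), Ndufc2 (0.089), Ndufc1 (0.083) and Ndufb9 (0.13). With 1 library left out, log2 fold changes crossed 0 in Ndufa12 (-0.091 to 0.036), Ndufa13 (-0.24 to 0.0098), Ndufa6 (-0.17 to 0.015), Ndufa8 (-0.40 to 0.015), Ndufab1 (-0.19 to 0.11), Ndufaf3 (-0.11 to 0.28), Ndufaf6 (-0.093 to 0.19), Ndufaf7 (-0.10 to 0.23), Ndufb2 (-0.19 to 0.024), Ndufb9 (-0.29 to 0.16), Ndufc1 (-0.17 to 0.11), Ndufc2 (-0.23 to 0.011), Ndufs7 (-0.27 to 0.011) and Ndufv3 (-0.32 to 0.13). Afg3l2 kept its direction, but missed the threshold without knockout library 1 or 2 (limma adjusted p = 0.0551 and 0.161).

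The submitters name the comparison as paired, and a fit with the replicate number as a block gave their deposited fold changes. The labels do not say what libraries of 1 replicate number share, and the main fit here has no block. Across 13795 genes at 1 CPM or more, the difference of libraries 1 and 2 had a correlation of 0.29 between the groups, and 0.11 over the 44 members. Each group has 2 libraries, and their number limits the precision of every value.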

Other observations

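The 4 deposited Nduf names that contain -ps stayed outside the comparison. Ndufb1-ps, annotated in GENCODE M21 as a long non-coding RNA of a bidirectional promoter, with 12.7% of its exon bases shared with Cpsf2 on the other strand, stood at 48.0 and 44.6 CPM in wild-type and 40.3 and 35.5 CPM in knockout libraries 1 and 2, within the range of the complex I subunits (log2 fold change -0.28 ± 0.16, limma adjusted p = 0.342). The groups did not overlap. Ndufa12-ps, Ndufs5-ps and Ndufab1-ps, annotated as processed pseudogenes, held between 0.237 and 5.28 CPM in each library, so reads assigned to these copies were few beside those of Ndufa12, Ndufs5 and Ndufab1.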
